A study of Mus musculus with 56 samples.

Results

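FOXO transcription factors and the muscle atrophy genes that act with them were followed over the day in mouse hearts fed only in the light or only in the dark. The 7 genes, chosen by name, were the transcription factor genes Foxo1, Foxo3 and Foxo4, the ubiquitin ligase genes Fbxo32 (atrogin-1, MAFbx) and Trim63 (MuRF1), the stress and growth-arrest gene Gadd45a, and Mstn (myostatin). They were chosen with earlier results of these data known. All 7 were among the 22864 genes listed, and 6 of them passed the filter for testing, a mean of at least 1 TPM, the read count scaled to gene length and to the whole library. Mstn did not pass.

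FOXO proteins are held in the cytoplasm when insulin, acting through AKT, phosphorylates them, and enter the nucleus when insulin signalling falls. In muscle they switch on genes of protein breakdown, among them Fbxo32 and Trim63, whose products attach ubiquitin to muscle proteins and mark them for the proteasome. Fbxo32 and Trim63 are the standard transcript markers of muscle wasting and of fasting, and both are also made in the heart. Much of the control of FOXO proteins is by phosphorylation and location, which transcript levels do not measure.

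Poly(A) RNA was sequenced from the hearts of C57BL/6J female mice, 9 weeks old at collection, after 7 days of daytime-restricted feeding (DRF, food at zeitgeber time (ZT) 0 to 12) or nighttime-restricted feeding (NRF, food at ZT12 to 24), where ZT0 is lights on and light and dark each last 12 h. No allele, drug or surgery is named in the labels, and all mice had first eaten freely for 7 days under the same light cycle. Each regimen was sampled at 7 times, ZT0, 4, 8, 12, 16, 20 and 24, with 4 libraries at each, 56 libraries in all. The labels do not say that libraries of 1 group came from separate mice, so the tests measure the spread between libraries.

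The libraries held 29.4 to 53.1 M counted reads (median 37.4 M). Markers of cardiomyocytes summed to 28886 to 44381 TPM in each library, while 5 of 8 skeletal muscle markers were listed and summed to 28.1 to 76.0 TPM. Myh1, Myh2 and Myh4, the defining genes of fast skeletal fibres, were not listed. Atrial markers (5 of 5 listed) summed to 94.9 to 5481 TPM, with medians of 608 under NRF and 1801 under DRF, and erythroid markers (5 of 5 listed) to 1682 to 67273 TPM. In bulk tissue, fewer cells of a type and less RNA per cell cannot be told apart.

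A pair of libraries each correlated with the other's group and not with its own. Over 13885 genes, the library labelled DRF ZT4 replicate 1 correlated at r = -0.155 with the other 3 libraries of its group and at r = 0.307 with the other 3 of NRF ZT8. The library labelled NRF ZT8 replicate 1 correlated at r = -0.141 with the other 3 of its group and at r = 0.323 with the other 3 of DRF ZT4. A further library, DRF ZT4 replicate 2, which had the highest erythroid sum, correlated at r = -0.206 with its own group and was nearest to DRF ZT12, so that none of the 4 DRF ZT4 libraries was nearest to its own group. In all, 44 of 56 libraries were nearest to the mean of their own group. The labels were kept as given. The pair had first been noticed by its Fbxo32 and Trim63 values, so calls gained by leaving it out are no independent support. Most counts of called members, and several single results that moved, are given with and without the pair, and the counts over gene lists are given with it. Without DRF ZT4 replicate 2 alone, the rhythm call of Fbxo32 under DRF was lost (adjusted p = 0.0612), and Foxo1 was also called higher without food under DRF (0.14, adjusted p = 0.0498).

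In the GENCODE M21 annotation of GRCm38, Foxo1 spans chr3:52268336-52353221 (plus strand), Foxo3 chr10:42181841-42276755 (minus), Foxo4 chrX:101254528-101260873 (plus), Fbxo32 chr15:58175879-58214932 (minus), Trim63 chr4:134315120-134329629 (plus), Gadd45a chr6:67035096-67037457 (minus) and Mstn chr1:53061640-53068079 (plus). Values are for all exons of a gene.

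Levels differed widely among the members. Per length, averaged over 56 libraries, Trim63 was highest at 145 ± 27.4 TPM (SD, n = 56), followed by Foxo4 at 50.2 ± 4.13, Fbxo32 at 34.1 ± 9.92, Foxo3 at 26.5 ± 6.36, Gadd45a at 16.2 ± 3.64 and Foxo1 at 7.64 ± 1.01. The SDs take in the daily rhythm. The lowest library of Trim63 (92.2 TPM) lay above the highest library of every other member (61.7 TPM, Foxo4), and the highest of Foxo1 (10.9 TPM) lay above the lowest of Gadd45a (9.97 TPM). The ranges of Foxo4, Fbxo32 and Foxo3 overlapped one another. Of the near relatives, Foxo6 was at 4.20 ± 1.34 TPM, Gadd45b at 9.55 ± 3.17, Gadd45g at 27.1 ± 6.84, Trim54 and Trim55 are described with the other ligases, and Gdf11, the closest relative of Mstn, was at 2.17 ± 0.43 TPM.

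Mstn, which encodes a secreted inhibitor of muscle growth made mainly in skeletal muscle, was close to the limit of detection. It had 610 reads in all, 284 over the 28 NRF libraries and 326 over the 28 DRF libraries, and 0 to 27 in a library. In the 1 library with 0 reads, a count of 0 allows up to 3 reads, or 0.0714 TPM, by counting error alone. Its level was 0.233 ± 0.126 TPM (SD, n = 56). With the filter lifted, limma called none of 25 tests of Mstn (lowest adjusted p = 0.195), and no difference passed at this depth. At ZT20 the 4 DRF libraries, at 0.0701 to 0.170 TPM (3 to 8 reads), lay below the 4 NRF libraries, at 0.194 to 0.396 TPM (8 to 19 reads).

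**Figure D1:**
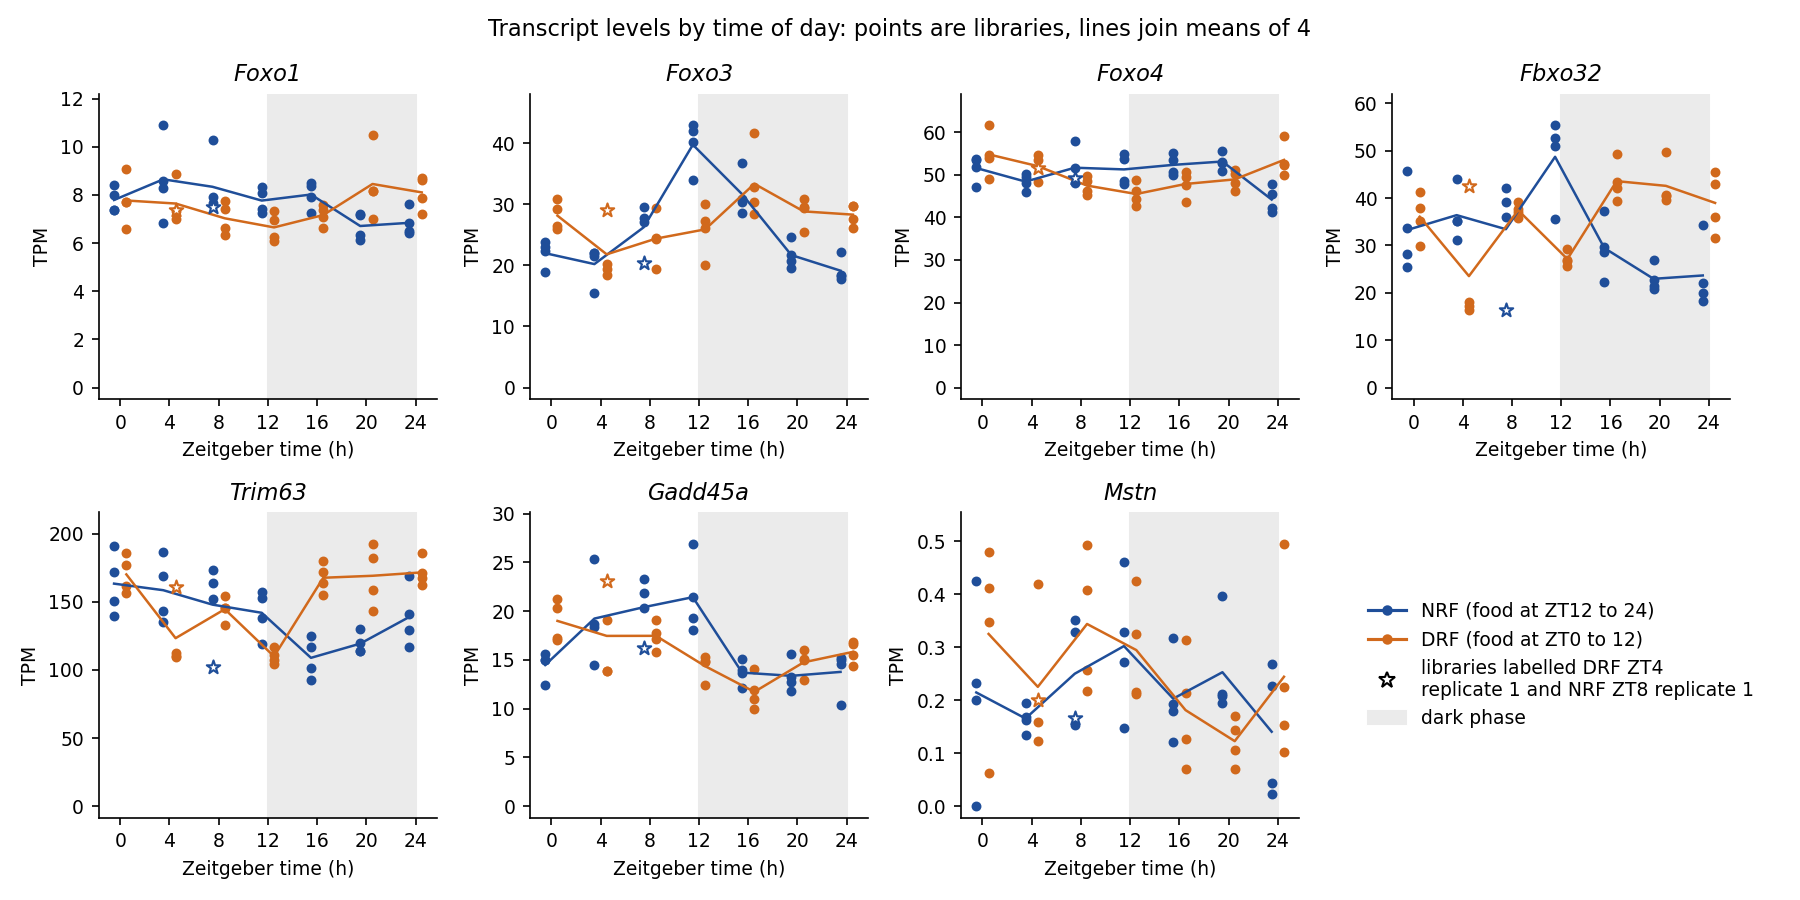
TPM (vertical axis, from near 0) against zeitgeber time in h for the 7 genes under NRF (blue) and DRF (orange), with 1 point a library, lines through the means of 4 libraries and the dark phase shaded. Fbxo32 under NRF was highest at ZT12 and under DRF at ZT16, and stars mark the libraries labelled DRF ZT4 replicate 1 and NRF ZT8 replicate 1, which lie away from the other libraries of their groups for Fbxo32 and Trim63.

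Rhythms were tested by fitting a 24-h cosine to log2(TPM + 1) with limma, with p-values adjusted over the 13891 genes tested (Benjamini-Hochberg, threshold 0.05). Under NRF, 4 of 6 members were rhythmic (Foxo3, Fbxo32, Trim63 and Gadd45a), against 37.2% of all genes tested. Under DRF, 6 of 6 were rhythmic, against 32.3% of all genes, but 4 of 6 without replicate 1 or 3 of every group and 2 of 6 without ZT16, where the calls of Foxo1, Foxo3, Fbxo32 and Gadd45a were lost. The DRF call of Foxo1 was lost without replicate 1 or 3 (adjusted p = 0.20 and 0.192), ZT12, ZT16 or ZT24, and the NRF call of Trim63 without replicate 2 (0.104) or ZT16 (0.148). Without the libraries labelled DRF ZT4 replicate 1 and NRF ZT8 replicate 1, Foxo1 also passed under NRF (adjusted p = 0.041, against 0.0668 with them), which made 5 of 6, against 42.8% of all genes, and 6 of 6 passed under DRF, against 30% of all genes. A rhythm was then split into the part that moved by 12 h with the food (the feeding-time component, which is also the test of a difference in rhythm between the regimens) and the part that kept its clock time (the light-dark component). A rhythm weaker in 1 regimen, without any move in time, gives a feeding-time component too. The feeding-time component passed in 6 of 6 members, against 27.5% of all genes, and the light-dark component in 3 of 6 (Foxo3, Trim63 and Gadd45a), against 41.3%. Both counts stayed at 6 and 3 without those libraries, against 30.5% and 43.4% of all genes.

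Both ubiquitin ligases had a feeding-time component, Trim63 also had a light-dark component, and Fbxo32 had the largest fitted feeding-time amplitude of the members. Fbxo32, whose product is the substrate-binding part of an SCF ubiquitin ligase, had a feeding-time amplitude of 0.32 ± 0.07 (log2, SE; adjusted p = 0.0035) and a light-dark amplitude of 0.13 ± 0.07 (adjusted p = 0.287). The light-dark component passed without replicate 1 of every group (adjusted p = 0.043). The feeding-time call was lost without replicate 3 of every group (adjusted p = 0.0781) and without ZT20 (0.0708). Its fitted peak was at ZT9.40 ± 1.14 h under NRF and ZT18.5 ± 1.09 h under DRF (SE), 9.06 h apart (95% interval 5.90 to 12.2 h). Aligned to the food, the component peaked 19.96 ± 0.84 h after food became available, within the hours without food. Without the libraries labelled DRF ZT4 replicate 1 and NRF ZT8 replicate 1 the feeding-time amplitude was 0.39 ± 0.07 (adjusted p = 3.74e-05) and the light-dark amplitude 0.15 ± 0.06.

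A single cosine described Fbxo32 only in part. It accounted for 53.0% of the variance between the 7 group means under NRF and 44.0% under DRF. Under DRF the 4 libraries held 42.5, 17.2, 16.4 and 18.0 TPM at ZT4, then 35.9, 39.1, 37.1 and 37.6 at ZT8, then 29.2, 26.9, 25.7 and 26.8 at ZT12, and then 49.3, 42.1, 43.4 and 39.4 at ZT16. Apart from the library labelled DRF ZT4 replicate 1 (42.5 TPM), the 4 groups did not overlap, so low and high levels alternated from ZT4 to ZT16, and the first 3 of these times lie in the hours with food. The call of a 24-h rhythm under DRF (adjusted p = 0.0315) was lost without any 1 replicate number, without ZT0, 4, 16 or 20 (adjusted p 0.0505 to 0.162), without DRF ZT4 replicate 2 (0.0612) and with atrial and erythroid marker sums as covariates (0.0561), and under NRF (0.026) it was lost without replicate 2, 3 or 4 of every group and without ZT12, 20 or 24.

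Under NRF, Fbxo32 held 35.7, 52.7, 51.0 and 55.4 TPM at ZT12, the end of the hours without food, and 22.6, 20.8, 21.4 and 27.0 TPM at ZT20. Every library at ZT12 lay above every library at ZT20, and the means differed 2.12-fold. At ZT8 the library labelled NRF ZT8 replicate 1 held 16.4 TPM, far below the other 3 at 36.1, 42.1 and 39.2, just as the library labelled DRF ZT4 replicate 1 stood far above the rest of its group.

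Trim63, a RING-finger ligase of the sarcomere, moved over a smaller range. The feeding-time amplitude was 0.22 ± 0.04 (adjusted p = 0.000386) and the light-dark amplitude 0.14 ± 0.04 (adjusted p = 0.0118), or 0.26 ± 0.04 and 0.12 ± 0.04 without the libraries labelled DRF ZT4 replicate 1 and NRF ZT8 replicate 1. The light-dark call was lost without ZT0 or ZT12 (adjusted p = 0.132 and 0.126) and without replicate 1 of every group (0.137). Its fitted peak was at ZT4.67 ± 0.84 h under NRF and ZT20.9 ± 0.82 h under DRF, 7.78 h apart, and the feeding-time component peaked 18.9 ± 0.67 h after food became available. At ZT16, 4 h into the food of the NRF mice, NRF libraries held 92.2, 101.3, 125 and 117 TPM and DRF libraries 180, 164, 172 and 155 TPM, with no overlap. Under DRF the level at ZT12 was 117, 107, 111 and 104 TPM, so that the DRF libraries of ZT16 were all above those of ZT12, 4 h earlier.

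The 5 members with a promoter entry in RefSeq (GRCm38.p6, 250 bases before to 50 after the start) were Foxo1, Foxo3, Trim63, Gadd45a and Mstn; Foxo4 and Fbxo32 had none. The FOXO element GTAAACA, searched on both strands, was found in 1 of these 5, Trim63, and in 3.65% of all 32851 promoters. The Trim63 stretch is shown because it also holds a glucocorticoid receptor palindrome, the half-sites GAACA and TGTTC with 3 bases between them, present in 0.0578% of all promoters, next to that element, and 2 of 32851 promoters held both. It is chr4:134314908-134314936 on the plus strand, upstream of the first exon, with the palindrome from base -208 to -196 and the FOXO element, read on the minus strand, from base -194 to -188 (0 is the first transcribed base). The capitals mark both motifs.
Trim63: ctctGAACAGTCTGTTCtTGTTTACgacc
No promoter entry of a member held the E-box CACGTG (7.15% of all promoters) or the D-box TTATGTAA (0.938%). These matches describe letters only, and binding was not measured.

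Of the 3 FOXO members, Foxo3 had the widest swing, with 42.0, 33.9, 43.0 and 40.2 TPM at ZT12 and 22.2, 17.7, 18.4 and 18.2 TPM at ZT24 under NRF, a 2.08-fold ratio of means with no overlap. Both its components passed, the feeding-time one at 0.23 ± 0.04 (adjusted p = 2.11e-05) and the light-dark one at 0.27 ± 0.04 (adjusted p = 3.18e-07, peak at ZT14.7 ± 0.54 h). Its fitted peak was at ZT13.0 ± 0.50 h under NRF and ZT18.1 ± 0.80 h under DRF, a delay of 5.13 h (95% interval 3.25 to 7.02 h). The amplitude was 0.44 ± 0.05 under NRF and 0.24 ± 0.06 under DRF, lower under DRF by 0.19 (95% interval 0.04 to 0.35).

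Foxo1, the best known FOXO target of insulin in liver and muscle, varied little. The highest and lowest group means differed 1.29-fold under NRF (8.65 ± 1.69 TPM at ZT4 and 6.71 ± 0.55 at ZT20, SD, n = 4) and 1.27-fold under DRF (8.46 ± 1.47 at ZT20 and 6.65 ± 0.59 at ZT12). The feeding-time component was 0.11 ± 0.03 (adjusted p = 0.00357), peaking 21.4 ± 0.93 h after food became available, and the light-dark one 0.04 ± 0.03 (adjusted p = 0.459). The call of the feeding-time component was lost without replicate 3 of every group.

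Foxo4 moved over a small range. Its feeding-time component was 0.09 ± 0.02 (adjusted p = 0.000527), the smallest of the 6, and peaked 1.44 ± 0.84 h after food became available, and its light-dark component was 0.03 ± 0.02 (adjusted p = 0.315). The light-dark component passed with median-of-ratios scaling (adjusted p = 0.0361) and without ZT24 (0.0428). The groups ranged from a mean of 44.2 ± 3.00 TPM at NRF ZT24 to 54.8 ± 5.21 TPM at DRF ZT0. The NRF level at ZT20 was 52.9, 51.0, 55.6 and 53.1 TPM and at ZT24 45.5, 47.8, 42.3 and 41.3 TPM, a step between neighbouring times with no overlap. Under NRF the cosine fit accounted for 34.5% of the variance between group means and was not called (adjusted p = 0.133), under DRF for 91.6% (adjusted p = 0.0016).

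Gadd45a, induced by stress and in muscle by denervation and fasting, kept much of its clock time. Its light-dark component was 0.26 ± 0.04 (adjusted p = 7.04e-06, peak at ZT6.54 ± 0.54 h) and its feeding-time component 0.18 ± 0.04 (adjusted p = 0.000552). The fitted peak moved from ZT8.42 ± 0.57 h under NRF to ZT3.79 ± 0.79 h under DRF, a shift of -4.63 h (95% interval -6.58 to -2.68 h). Under NRF it held 18.1, 26.9, 21.4 and 19.3 TPM at ZT12 and 13.6, 12.1, 13.9 and 15.1 TPM at ZT16, with no overlap, and under DRF it was lowest at ZT16 (14.04, 9.97, 11.9 and 10.9 TPM). A gene on the other strand, E230016M11Rik, overlaps Gadd45a, as Gm20402 does Foxo1 and Gm15943 does Fbxo32, and Gm38034 lies within Foxo1 on its own strand. The strand setting of the counting is not stated, so reads from such pairs cannot be told apart where the genes overlap.

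**Figure D2:**
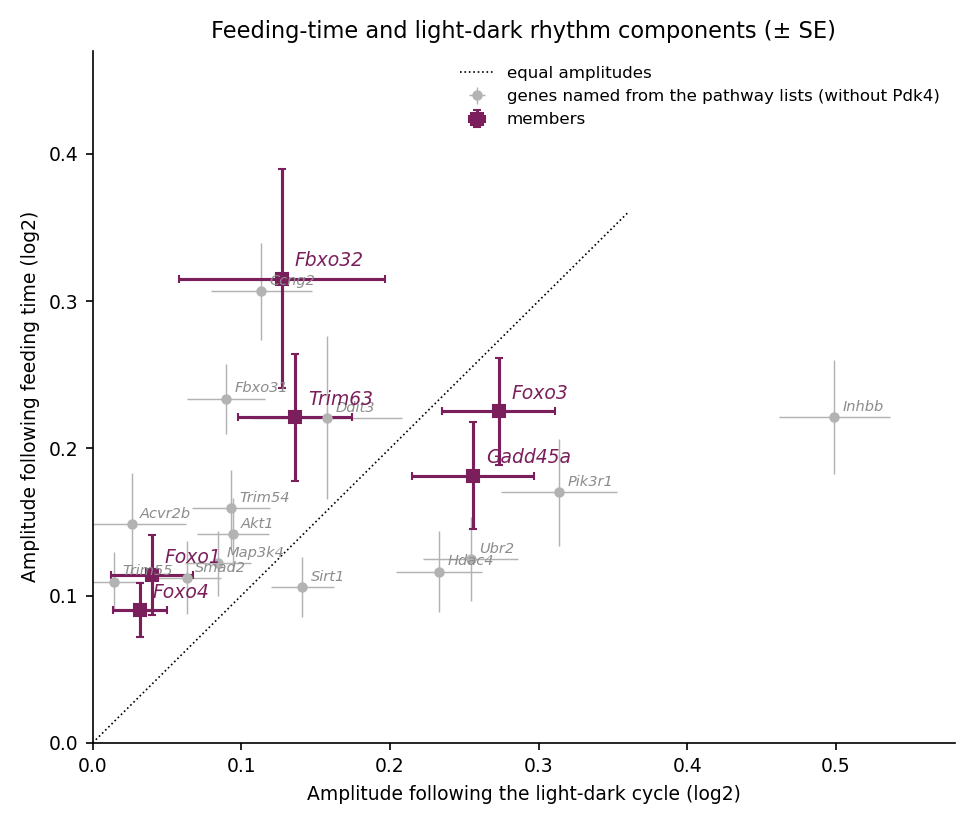
Amplitude of the feeding-time component (vertical axis, log2, ± SE) against amplitude of the light-dark component (horizontal axis, log2, ± SE) for the 6 tested members (squares) and for the genes named from the pathway lists (grey circles, without Pdk4, which lies off the scale). Fbxo32, Trim63, Foxo1 and Foxo4 lie above the dotted line of equal amplitudes and Foxo3 and Gadd45a below it.

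To ask whether the members were higher without food, the times with and without food were averaged in each regimen (light-phase set: ZT4, 8 and 12; dark-phase set: ZT16, ZT20 and the mean of ZT0 and ZT24). Averaged over both regimens, 5 of 6 members were higher without food, against 8.55% of all genes tested and 20.5% in either direction. The differences were 0.52 ± 0.08 for Fbxo32 (log2, SE; adjusted p = 1.13e-05), 0.34 ± 0.05 for Trim63 (2.27e-06), 0.25 ± 0.05 for Foxo3 (0.000233), 0.18 ± 0.05 for Gadd45a (0.0124) and 0.13 ± 0.04 for Foxo1 (0.00991). The value of Gadd45a averages unlike regimens, 0.52 under NRF and -0.16 under DRF (given below). Foxo4 differed by 0.02 ± 0.02 (adjusted p = 0.644, 95% interval -0.03 to 0.07). The calls of Gadd45a and Foxo1 were lost without some replicates (Gadd45a without replicate 2, 3 or 4, Foxo1 without 3 or 4), and the other 3 were kept under all 13 alternatives. Without the libraries labelled DRF ZT4 replicate 1 and NRF ZT8 replicate 1 the differences were 0.63, 0.39, 0.30, 0.22 and 0.14, in the same order.

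Within regimens, 4 of 6 members were higher without food under NRF, against 17% of all genes, and 3 of 6 under DRF, against 6.18%. Without the libraries labelled DRF ZT4 replicate 1 and NRF ZT8 replicate 1 the NRF count was 5, where 31.1% of all genes passed in either direction, and the DRF count 3 (27.4%). With median-of-ratios scaling and on the deposited scale, Foxo1 (adjusted p = 0.000745 and 0.00268) and Foxo4 (0.00969 and 0.0203) were also called under DRF. By voom Foxo1 was also called (0.0257). The shares of all genes called in these settings are not given here. Fbxo32 was higher in both regimens, by 0.52 ± 0.12 under NRF (adjusted p = 0.00113) and 0.53 ± 0.12 under DRF (0.000859), and by 0.62 ± 0.09 and 0.64 ± 0.09 without the libraries labelled DRF ZT4 replicate 1 and NRF ZT8 replicate 1. Trim63 was higher without food by 0.25 ± 0.07 under NRF (0.00811) and by 0.44 ± 0.07 under DRF (1.05e-05), or by 0.30 and 0.48 without those libraries, and its NRF call was lost without replicate 2 (0.175) or 4 (0.0656) of every group. The difference of Foxo1 under DRF was 0.12 ± 0.05 (0.0893). Foxo1 was higher by 0.14 ± 0.05 under NRF (0.0452), a call lost without replicate 2, 3 or 4 of every group (0.103 to 0.358) and without the filter (0.0642). Foxo3 was higher by 0.32 ± 0.07 under DRF (0.000655), and its difference under NRF was 0.18 ± 0.07 (0.0552), or 0.22 ± 0.07 (0.00862) without those libraries. The difference between the regimens was tested through the light minus dark contrast, which passed in 1 of 6 members, Gadd45a (adjusted p = 3.57e-06), against 29.7% of all genes. Gadd45a was higher without food by 0.52 ± 0.08 under NRF (1.31e-06), and under DRF its difference was -0.16 ± 0.08 (0.107). With median-of-ratios scaling the light minus dark contrast also passed in Foxo3 (adjusted p = 0.0425), Foxo4 (0.005) and Trim63 (0.0215), and on the deposited scale in Foxo4 (0.0497). The shares of all genes called are not given for these settings.

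**Figure D3:**
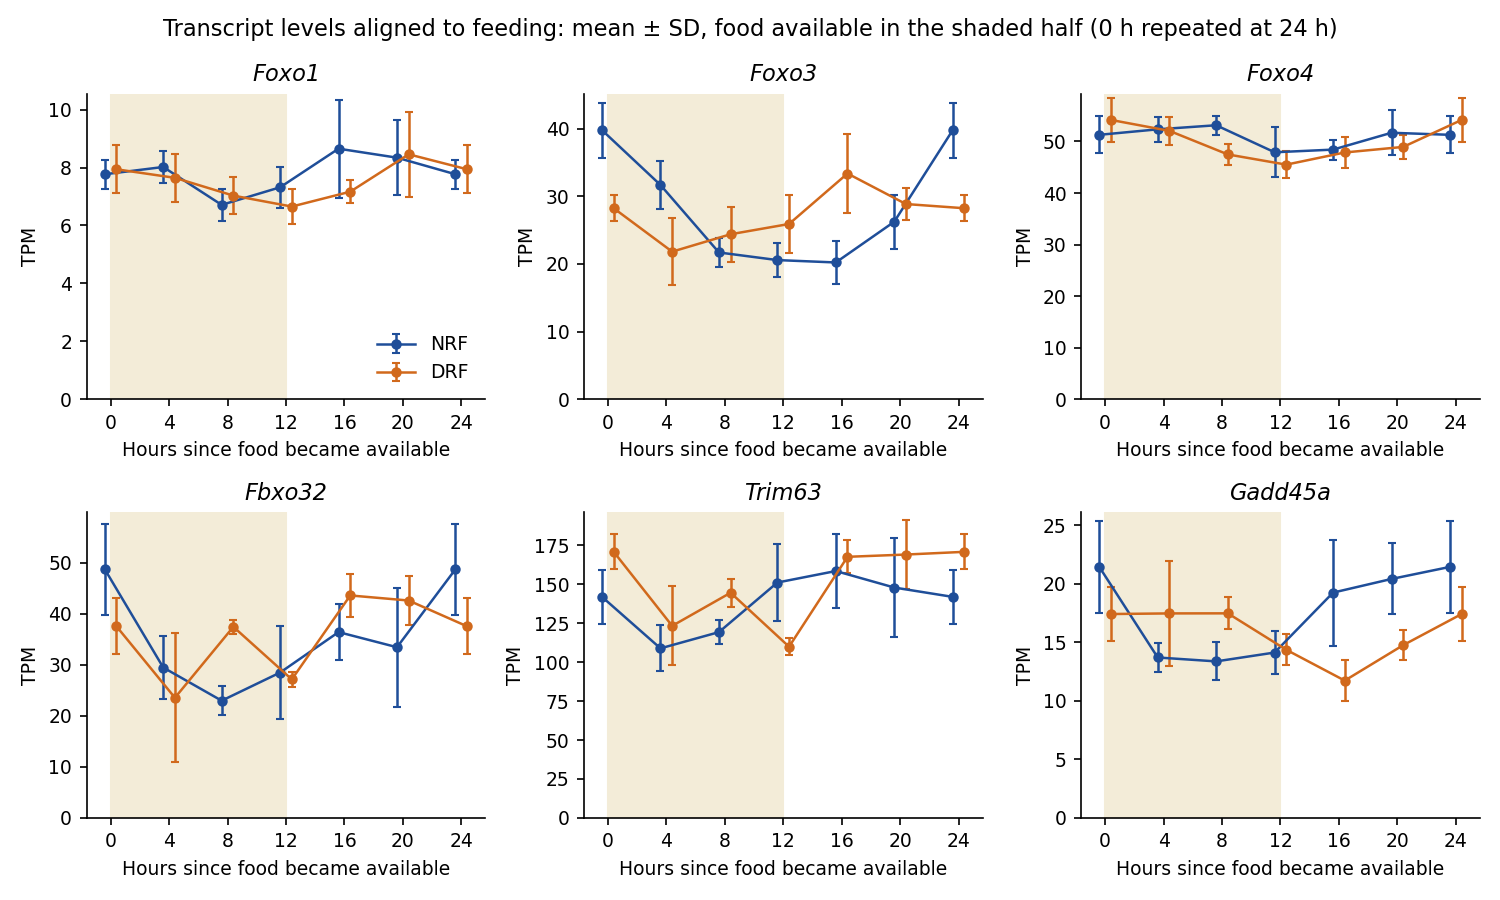
TPM (vertical axis, mean ± SD) against hours since food became available for the 6 tested members under NRF (blue) and DRF (orange), with the hours of food shaded and 4 libraries a point (8 at 0 h under DRF and at 12 h under NRF, where ZT0 and ZT24 meet). Gadd45a at 16 h held 11.7 ± 1.74 TPM under DRF and 19.2 ± 4.52 under NRF, while Foxo3 at 16 h was at 33.4 ± 5.82 under DRF and 20.2 ± 3.20 under NRF.

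At the same clock time, members were called different between DRF and NRF at ZT12 and from ZT16 to ZT24. Of 42 comparisons of the 6 members at 7 times, 11 passed, 8 of them higher and 3 lower under DRF. Without replicate 2 of every group 3 passed, and without replicate 3 of every group 2 passed. At ZT12, when NRF mice were about to eat and DRF mice had just finished, 3 of 6 members were lower under DRF, against 6.39% of all genes. Foxo3 was lower by 0.61 ± 0.13 (log2, SE; adjusted p = 0.0027), Fbxo32 by 0.80 ± 0.22 (0.0166) and Gadd45a by 0.54 ± 0.14 (0.0118). For each of these the 4 DRF libraries lay below the 4 NRF libraries.

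Some of the ZT12 calls were lost with fewer libraries. That of Fbxo32 was lost without DRF replicate 3 or NRF replicate 2 or 3 (adjusted p 0.051 to 0.0611), though the difference stayed at -0.76 to -0.78. It was also lost without replicate 2, 3 or 4 of every group (0.136, 0.23 and 0.0688), at -0.73 to -0.76. The Gadd45a call was lost without NRF replicate 2 (-0.42, adjusted p = 0.0717), which held its highest value, 26.9 TPM. Without replicate 2 or 3 of every group it was lost too (-0.44 and -0.55, adjusted p = 0.127 and 0.184). At ZT12 the atrial marker sum was 190 to 1643 TPM under NRF and 965 to 4697 TPM under DRF. With atrial and erythroid sums as covariates, the differences were -0.74 for Fbxo32 (adjusted p = 0.0538) and -0.44 for Gadd45a (0.0666), and the part of these markers in the differences was not tested otherwise. Foxo3 stayed called with each library left out in turn (adjusted p up to 0.0336), but not without replicate 3 of every group (-0.46, adjusted p = 0.202).

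From ZT16 to ZT24 every called difference was higher under DRF. Some uncalled values were lower. At ZT16 Foxo1, Foxo4 and Gadd45a were at -0.14, -0.13 and -0.21, and at ZT20 Foxo4 was at -0.12. At ZT16, 1 of 6 members was higher under DRF, against 0.648% of all genes, and this was Trim63, by 0.63 ± 0.13 (adjusted p = 0.00227). At ZT20, 4 of 6 were higher under DRF, against 3.35% of all genes. Fbxo32 was higher by 0.86 ± 0.22 (adjusted p = 0.00553), with 49.7, 40.4, 40.7 and 39.5 TPM under DRF, none overlapping the NRF libraries given above. Trim63 was higher by 0.49 ± 0.13 (0.00718), Foxo3 by 0.40 ± 0.13 (0.0326) and Foxo1 by 0.28 ± 0.10 (0.0434).

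The ZT20 calls of Foxo1 and Foxo3 were lost without single libraries. For Foxo1, each library but DRF replicate 2 did so (highest adjusted p = 0.197, a difference of 0.19, without DRF replicate 4). In the other cases the Foxo1 difference was 0.25 to 0.32, against 0.28 with all libraries. For Foxo3, each but DRF replicate 2 and NRF replicate 1 did so (adjusted p 0.0555 to 0.0942), at differences of 0.35 to 0.40, against 0.40. Both calls were also lost without some replicates of every group. Foxo1 was lost without any 1 of them (0.051 to 0.211, differences 0.16 to 0.39) and Foxo3 without 2, 3 or 4 (0.0791 to 0.204, differences 0.32 to 0.46). Fbxo32 and Trim63 were called at ZT20 with each library left out in turn. Fbxo32 was lost without replicate 2 of every group (0.84, adjusted p = 0.0704) and Trim63 without replicate 3 (0.46, 0.0643). At ZT16, Trim63 was lost without replicate 2 of every group (0.61, 0.0528).

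At ZT24, 3 of 6 were higher under DRF, against 4.4% of all genes. Foxo3 was higher by 0.55 ± 0.13 (adjusted p = 0.00583), with 26.2, 29.8, 29.7 and 27.5 TPM under DRF, all above the NRF libraries. Foxo4 was higher by 0.27 ± 0.06 (0.00516), with 52.6, 49.98, 52.3 and 59.2 TPM, also without overlap. Fbxo32 was higher by 0.72 ± 0.22 (0.0278), but here the groups overlapped, since NRF replicate 1 held 34.3 TPM and the other 3 NRF libraries 18.2 to 22.1. That call was lost without DRF replicate 1 or 2 or NRF replicate 2, 3 or 4 (adjusted p 0.0545 to 0.107), at differences of 0.62 to 0.71. It was also lost without replicate 2, 3 or 4 of every group (0.0743 to 0.266), at 0.57 to 0.76. Without NRF replicate 1 Trim63 was called as well (0.41, adjusted p = 0.0458, against 0.31 and 0.116 with it). Without replicate 3 of every group the ZT24 calls of Foxo3 (0.51, adjusted p = 0.0915) and Foxo4 (0.26, 0.0944) were lost too, and that of Foxo3 also without replicate 2 (0.49, 0.0665). At ZT0, the same clock time, 0 of 6 members were called, against 11.4% of all genes. There Foxo3, Foxo4 and Fbxo32 differed by 0.34, 0.08 and 0.14 (adjusted p = 0.078, 0.448 and 0.749).

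At ZT0, 4 and 8, limma called 0 of 6 members, against 11.4%, 0.446% and 0.353% of all genes. The counts at an unadjusted p under 0.05 were 2, 2 and 1, and voom on the recovered reads called 2, 0 and 0. Without the libraries labelled DRF ZT4 replicate 1 and NRF ZT8 replicate 1, 18 of 42 comparisons passed in place of 11. At ZT4, Fbxo32 was then lower under DRF by 1.03 ± 0.17 (adjusted p = 0.000112, against a difference of -0.71 and 0.135 with them) and Trim63 by 0.50 ± 0.11 (0.00513, against -0.37 and 0.203), where 3.46% of all genes passed. At ZT0, where 12.5% of all genes then passed, Foxo3 and Gadd45a were higher by 0.34 and 0.37 (0.0408 and 0.0434), and the other calls gained were Trim63 at ZT12 and ZT24 and Fbxo32 at ZT16.

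**Figure D4:**
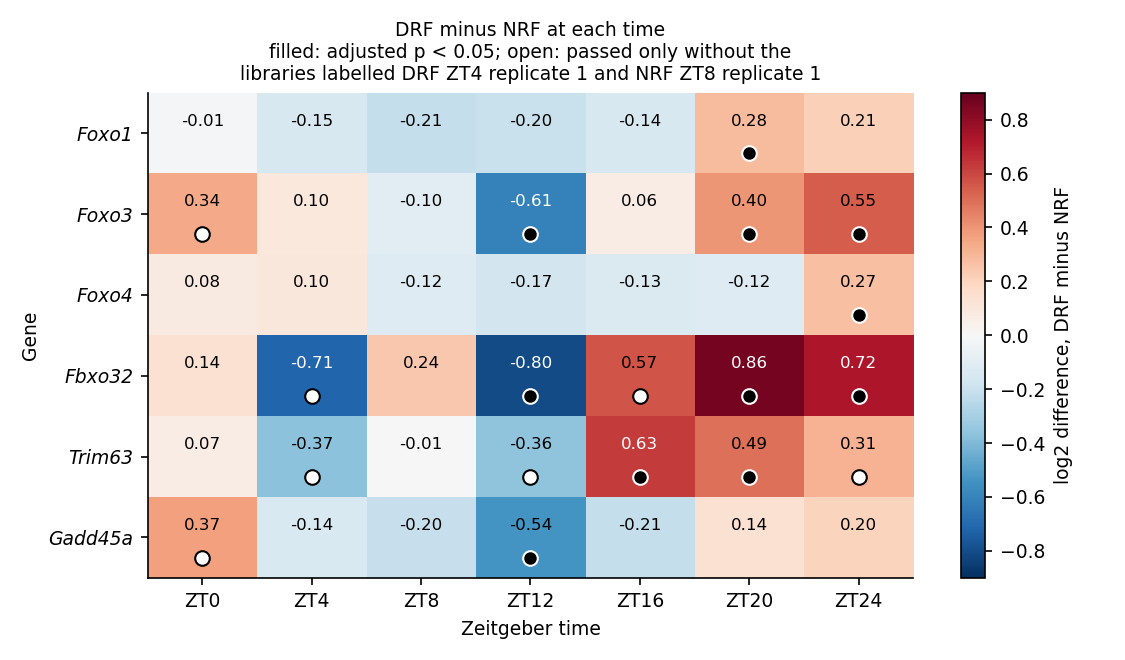
Differences between DRF and NRF (log2, DRF minus NRF, printed and coloured) for the 6 tested members (rows) at 7 times (columns). Filled circles mark an adjusted p under 0.05 with all libraries and open circles those under it only without the libraries labelled DRF ZT4 replicate 1 and NRF ZT8 replicate 1. The filled circles are 3 lower values at ZT12 and 8 higher values at ZT16 to ZT24.

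Compared at the same hours since food became available, 7 of 36 differences passed. Foxo3 gave 3 of them, lower under DRF at 0 h by 0.48 ± 0.11 (adjusted p = 0.00269, against 13% of all genes called) and at 4 h by 0.53 ± 0.13 (0.00636, 6.4%), and higher at 16 h by 0.69 ± 0.13 (0.000132, 22.7%). Gadd45a was lower under DRF at 16 h by 0.65 ± 0.14 (0.000531) and at 20 h by 0.43 ± 0.14 (0.0181, 24.1%). Trim63 was lower at 12 h, when food had just ended, by 0.44 ± 0.11 (0.00626, 9.83%), and Fbxo32 was higher at 8 h by 0.69 ± 0.22 (0.0498, 5.56%). Foxo1 and Foxo4 passed at no food-matched time, with unadjusted p-values under 0.05 at 1 time each, and voom called Foxo4 at 8 h. Foxo4 was also called at 0 h with median-of-ratios scaling (0.14, adjusted p = 0.0469) and Foxo1 at 16 h without NRF ZT4 replicate 1 (-0.32, 0.014) and without replicate 1 of every group (0.0258).

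The 8 h call of Fbxo32 was lost without each single library but NRF ZT20 replicate 4 (adjusted p up to 0.118), though the difference stayed at 0.65 to 0.71. It was also lost without replicate 2, 3 or 4 of every group (0.0887 to 0.288, differences 0.62 to 0.76), with the replicate block (0.0561), with a pseudocount of 0.1 (0.0503) and without the filter (0.0734). The 20 h call of Gadd45a was lost without DRF ZT20 replicate 2 or NRF ZT8 replicate 3 or 4 (up to 0.0933), at -0.37 to -0.40. Without replicate 2, 3 or 4 of every group (0.0705 to 0.12, differences -0.38 to -0.44), with median-of-ratios scaling (-0.31, adjusted p = 0.0779) and on the deposited scale (0.109) it was lost too. At 20 h the median of all genes stood at -0.12. Without the libraries labelled DRF ZT4 replicate 1 and NRF ZT8 replicate 1, 10 of 36 passed, among them Fbxo32 at 4 h (-0.72, adjusted p = 0.0037, 6.44% of all genes), and Foxo3 at 4 h and Gadd45a at 20 h were at -0.68 and -0.53. The 4 h call of Foxo3 was lost without replicate 2 (-0.39, adjusted p = 0.241) or 3 (-0.51, 0.0668) of every group and the 12 h call of Trim63 without replicate 4 (-0.37, 0.0597).

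The level averaged over the day was not called different between the regimens in any member by limma (0 of 6, against 28.9% of all genes, 26.1% lower and 2.87% higher under DRF). Over all genes that was 3621 lower and 399 higher, and with median-of-ratios scaling 1561 lower and 1254 higher. At an unadjusted p under 0.05 there were 2 of 6, Trim63 (0.11 ± 0.05, adjusted p = 0.0829) and Foxo3 (0.10 ± 0.05, 0.101), both higher under DRF. Both passed by voom (adjusted p = 0.0281 and 0.0255), with median-of-ratios scaling and on the deposited scale. The first and last samples of the day, ZT0 and ZT24, were also compared, and 0 of 12 comparisons passed, against 0.0576% of all genes under NRF and 0.425% under DRF. At an unadjusted p under 0.05 there were 2 of 12, both under NRF, Foxo4 (-0.22 ± 0.06, adjusted p = 0.292) and Fbxo32 (-0.48 ± 0.22, 0.51), and voom called 0.

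Within groups, libraries high in Fbxo32 were high in Trim63. The deviations from the group means of log2(TPM + 1) correlated at r = 0.79 and rho = 0.69 over 56 libraries (permutation within groups, 2-sided, adjusted over 21 pairs p = 0.00084 for both, 100000 permutations). Without the 2 libraries farthest from the median of Fbxo32 r was 0.69, and it was 0.64 with the group means taken anew without the libraries labelled DRF ZT4 replicate 1 and NRF ZT8 replicate 1. Gadd45a went with both, at r = 0.54 and rho = 0.45 with Fbxo32 (adjusted p = 0.00913 and 0.0202) and at r = 0.50 and rho = 0.46 with Trim63 (0.0232 and 0.0202). Both were lower without the 2 farthest libraries (r = 0.41 and 0.38) and without the libraries labelled DRF ZT4 replicate 1 and NRF ZT8 replicate 1 (r = 0.34 and 0.32).

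Foxo3 correlated with Fbxo32 at r = 0.47 and rho = 0.35 (adjusted p = 0.0334 and 0.0597) and with Trim63 at r = 0.43 and rho = 0.33 (0.0334 and 0.0631). Without the 2 libraries farthest from the median of Foxo3 these values were r = 0.36 and 0.34. With the group means taken anew without the libraries labelled DRF ZT4 replicate 1 and NRF ZT8 replicate 1 they were r = 0.17 and 0.18. Foxo1 and Foxo4 correlated at r = 0.38 and rho = 0.34 (0.0334 and 0.0597), and no pair with Mstn passed. Deviations of 1 library share its depth and tissue makeup.

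**Figure D5:**
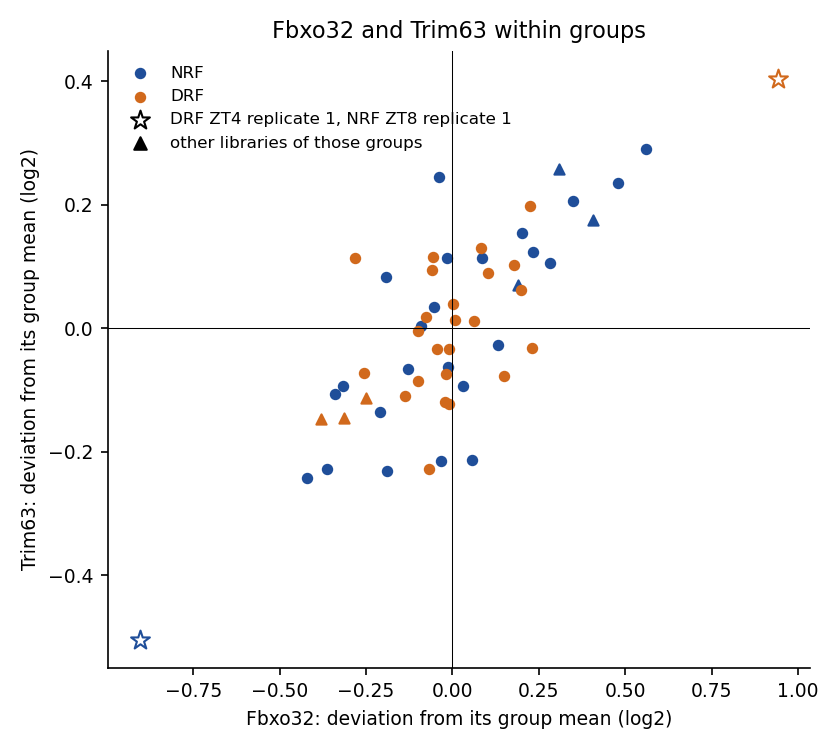
Deviation of each of 56 libraries from its group mean for Trim63 (vertical axis, log2) against Fbxo32 (horizontal axis, log2), NRF blue and DRF orange. Stars mark the libraries labelled DRF ZT4 replicate 1 (upper right) and NRF ZT8 replicate 1 (lower left), and triangles the other 6 libraries of those groups. The other libraries also run from lower left to upper right (r = 0.64 without the starred pair).

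Across the 14 group means the genes with the courses most like each member were named by Pearson's r, as a description over group means. The closest to Fbxo32 were Klhl38 (r = 0.96), Wdr81 (0.94) and Rasd1 (0.92). The closest to Trim63 were Bcl2l11 (0.89), which encodes the cell-death protein BIM and is on the list of FOXO targets, Lrrc61 (0.88) and Trim23 (0.87). Foxo3 was matched by Fry (0.96), Gdap10 (0.95) and Sirt1 (0.93), whose product deacetylates FOXO proteins. Gadd45a was matched by Enpp3 (0.95), Chpf2 (0.94) and Asah2 (0.94), Foxo1 by Sema5a (0.91), Mon1b (0.85) and Zc2hc1c (0.84), and Foxo4 by Sema3g (0.88), Mustn1 (0.85) and 5031425E22Rik (0.84). Among the members, Fbxo32 went with Foxo3 (r = 0.69) and Trim63 (0.68) over the 14 means, while Foxo3 and Trim63 were at 0.13.

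Of 27 known FOXO targets tested, 21 had a feeding-time component (27.5% of all genes) and 12 a light-dark component (41.3% of all genes), and 18 were higher and 0 lower without food (8.55% and 11.9% of all genes), with a median difference of 0.18 against -0.01 over all genes. At ZT20, 16 of 27 were higher under DRF and 0 lower, and at ZT24 13 were higher and 0 lower, against 3.35% and 4.4% of all genes higher. At ZT12, 6 were lower and 0 higher, against 6.39% of all genes lower, at ZT0 7 were higher and 0 lower, against 3.04% of all genes higher, and at ZT16 4 were higher and 2 lower, against 0.648% and 6.23%. The light minus dark contrast passed in 7 of 27, 2 higher and 5 lower, against 29.7% of all genes. Over the day, 10 of 27 were higher under DRF and 0 lower, against 2.87% of all genes higher. This list and those below were chosen with earlier results of these data known, so their counts are no independent support. The 3 targets with the smallest p for the feeding-time component were Pdk4, Fbxo31 and Ccng2.

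Pdk4, the kinase that shuts off pyruvate dehydrogenase, had a feeding-time amplitude of 1.35 ± 0.13 (adjusted p = 2.83e-10) and ranged from 66.0 ± 18.3 TPM at DRF ZT8 to 1289 ± 290 TPM at DRF ZT20 (SD, n = 4). Fbxo31, an F-box gene, had 0.23 ± 0.02 (6e-10) and Ccng2, a cyclin that slows the cell cycle, 0.31 ± 0.03 (1.83e-09). These components peaked 19.7, 23.7 and 21.3 h after food became available, in the span of the members other than Foxo4 (18.9 to 23.2 h) save for Fbxo31.

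Of 19 regulators of FOXO proteins tested, 7 had a feeding-time component (27.5% of all genes), and 2 were higher and 3 lower without food (8.55% and 11.9% of all genes). Akt1, the kinase that phosphorylates FOXO proteins, had a component of 0.14 ± 0.02 (adjusted p = 7.78e-05) that peaked 9.46 h after food became available. Sirt1 had 0.11 ± 0.02 (0.000248), peaking at 22.2 h, and Pik3r1, the regulatory subunit of PI3-kinase, 0.17 ± 0.04 (0.0013) beside a larger light-dark amplitude of 0.31 ± 0.04.

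Of the other muscle ubiquitin ligases, 8 of 12 had a feeding-time component (27.5% of all genes), and 1 was higher and 3 were lower without food (8.55% and 11.9% of all genes). Trim54 and Trim55, the close relatives of Trim63 (MuRF3 and MuRF2), had amplitudes of 0.16 ± 0.03 (adjusted p = 2.52e-05) and 0.11 ± 0.02 (0.000115), and peaked 3.43 and 10.5 h after food became available, in the hours with food, whereas Trim63 peaked at 18.9 h. Trim54 ranged from 147 ± 8.47 TPM at NRF ZT4 to 214 ± 8.71 TPM at NRF ZT16, the time when Trim63 was lowest. Trim55 ranged from 56.6 ± 1.95 TPM at DRF ZT0 to 74.4 ± 4.47 TPM at NRF ZT0. Ubr2, an N-end rule ligase, had 0.12 ± 0.03 (0.00244) and peaked at 23.8 h.

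In the myostatin and activin pathway, 5 of 15 genes tested had a feeding-time component, and 2 were higher and 1 lower without food, shares near the 27.5%, 8.55% and 11.9% of all genes. Inhbb, an activin subunit, had a feeding-time amplitude of 0.22 ± 0.04 (adjusted p = 7.13e-05) and a light-dark amplitude of 0.50 ± 0.04. Smad2, a signal transducer of the pathway, had 0.11 ± 0.02 (0.00185) and Acvr2b, the myostatin receptor, 0.15 ± 0.03 (0.00295), the latter between 1.87 ± 0.09 and 2.88 ± 0.32 TPM. Of Gadd45 relatives and partners, 4 of 10 had a feeding-time component, and 2 were higher and 4 lower without food, against the same 27.5%, 8.55% and 11.9%. Map3k4, a kinase that GADD45 proteins activate, peaked 5.99 h after food became available (0.12 ± 0.02, adjusted p = 0.000138) and Ddit3, a stress-response factor, at 6.43 h (0.22 ± 0.06, 0.00673). Hdac4, a histone deacetylase that acts upstream of Gadd45a in denervated muscle, was at 23.98 h (0.12 ± 0.03, 0.00393).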

How the data were processed

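The members and the gene lists were chosen with earlier results of these data known. Per the submitters' processing notes, reads were aligned with HISAT2 2.0.5 and counted with featureCounts 1.5.0-p3 on mm10, and the annotation and strand setting are not given in the sources used here. The authors deposited values named TPM that proved to be a library constant times log2(1 + reads divided by a depth factor), divided by gene length. With exon lengths from GENCODE M21 (GRCm38), 99.9996% of 1274227 values gave whole reads within 0.1. TPM on a linear scale was recomputed from those reads, since the deposited scale is no TPM. Lengths of 831 genes were found by search, and 2 genes (Atp5a1 and Fth1) stayed unresolved and were left out. Listed genes have reads in at least 20 libraries.

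Tests used limma 3.58.1 (R 4.3.3) with a mean-variance trend on log2(TPM + 1), for genes with a mean TPM of at least 1 (13891), over all 56 libraries or the 28 of a regimen. The added 1 understates fold changes of low genes. No covariate was used. Named were all members, the 3 genes most like each, and from each list the 3 with the smallest feeding-time p. On simulated data, checks recovered reads, lengths and rhythms. Intervals cover counting error or the spread between libraries only. Alternatives were another pseudocount, filter, scaling, voom, the deposited values, the replicate block, and left-out replicates, times and libraries. A few were added after the data were seen: leaving out the libraries named in the report, leaving out DRF ZT4 replicate 2 (highest erythroid sum), and marker covariates.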

Additional observations from a re-analysis of the deposited data

Results flagged for a closer look

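Groups of 4 libraries were searched for 1 value far from the other 3, by the gap to its neighbour as a share of the group's range (Dixon's test at 95%). Of 98 groups (7 genes, 14 groups), 8 passed, where chance gives about 1 in 20 (4.9). The library labelled DRF ZT4 replicate 1 was high in Fbxo32 (42.5 TPM, share 0.937) and in Trim63 (161 TPM, 0.947), and it is the library that correlated with NRF ZT8. The others were Fbxo32 at DRF ZT20 replicate 1 (49.7 TPM, high, 0.881), Foxo1 at NRF ZT8 replicate 4 (10.3 TPM, high, 0.86), Foxo3 at NRF ZT4 replicate 1 (15.4 TPM, low, 0.922) and at NRF ZT24 replicate 1 (22.2 TPM, high, 0.847), Gadd45a at NRF ZT24 replicate 4 (10.3 TPM, low, 0.876) and Mstn at NRF ZT20 replicate 2 (0.396 TPM, high, 0.912).

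Gadd45a differed between the regimens in its response to the hours without food. The difference without minus with food was larger under NRF than under DRF by 0.688 (log2), with an SE of 0.107, in the limma contrast across all genes (adjusted p = 3.57e-06).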

How the results depend on the processing

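Recomputed under the alternatives, 313 of 336 counts of called members stayed within 1.5 times their value. Of 3102 recomputed single values, 2900 stayed called or stayed uncalled, 116 lost the call and 86 gained it. Among values called in either setting 0 changed sign, and sign changes of uncalled values were not counted. The count of rhythmic members fell to 2 of 6 under DRF without ZT16. The count with a different mean level (0 of 6) was 2 with median-of-ratios scaling, voom, the deposited values, without ZT4 and without ZT8, and 3 without ZT12. Single-time differences went from 11 to 18 of 42 without the libraries labelled DRF ZT4 replicate 1 and NRF ZT8 replicate 1. Food-matched differences went from 7 to 11 of 36 with median-of-ratios scaling, and light minus dark differences from 1 to 4 with that scaling and to 2 with the deposited values. That scaling moved the median mean-level difference of all genes from -0.0475 to 0.0015, and calls from 399 higher and 3621 lower to 1254 and 1561. For those changes the cause was not tested. Calls over all genes are given without those libraries for several counts, and with median-of-ratios scaling for the mean level only.
Leaving out 1 replicate number of every group gave counts of 2 to 5 rhythmic members under NRF (against 4), 0 to 1 with a different mean level (against 0), 2 to 15 single-time differences (against 11), 4 to 12 food-matched differences (against 7), 3 to 5 members that differed without food (against 5) and 0 to 1 differences between ZT24 and ZT0 (against 0). The lowest single-time counts, 2 and 3, came without replicates 3 and 2, which leave 3 libraries a group.
The replicate numbers did not pair the samples: deviations of same-numbered libraries at the same time correlated by 0.0169 on average, against -0.00561 for other numbers, and 1 of 28 pairs was over 0.1. With the replicate block the counts were 4 and 6 rhythmic members, 6 and 3 components, 11 single-time and 6 food-matched differences, and 1 call changed, that of Fbxo32 at 8 h after food. Depth limits Mstn, with 0 to 27 reads a library.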
